A study of Mus musculus with 24 samples.

Results

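The 601 regions described here are stretches of the mouse genome, 674 to 7792 bp wide, where the mark H3K4me3 was more abundant in chromatin pulled from Camk2a-expressing neurons than in chromatin pulled from all cell types of the cerebral cortex. They were selected on the tandem ChIP (tChIP) libraries. A region was taken when it lay on chromosomes 1 to 19, had 10 or more counts in each of the 6 tChIP libraries, and had a log2 ratio of mean CPM (counts over the library total, times 1e6) in Camk2a tChIP over Rosa tChIP of 1 or more. Of the 17993 regions counted, 17374 lay on those chromosomes and 14780 passed the count minimum, and the 601 members were 4.07% of the 14780. Among the 2594 autosomal regions under the minimum, 411 had a ratio of 1 or more, so sparsely covered regions are missing from the set. The tChIP difference between the lines chose the members and is given below as a description only.

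Trimethylation of histone H3 at lysine 4 (H3K4me3) marks the promoters of active genes, and broad domains of it lie over genes that define a cell type. In the cortex, Camk2a is made by excitatory (glutamatergic) neurons, which are interleaved with inhibitory neurons, glia and vascular cells, so that a promoter active in those neurons alone is diluted when the whole tissue is assayed. In tChIP a FLAG-tagged histone H2B, made in chosen cells only, is precipitated first, and the mark is precipitated from that chromatin next.

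All 12 libraries used came from the cerebral cortex of C57BL/6 mice. The Rosa line (Rosa CAG-H2B-FLAG) expresses the tagged histone in every cell type after germ-line recombination by Vasa-Cre. The Camk2a line (Rosa26 CAG-floxed-pA-H2B-FLAG with CaMKCreERT2) expresses it after a tamoxifen-dependent Cre, driven by the Camk2a promoter, has removed the stop: tamoxifen was injected into males at the age of 8 weeks, at 1 mg a day over 5 days, and tissue was taken a month later. Each line had 3 tChIP libraries and 3 single ChIP libraries, in which H3K4me3 was precipitated from the whole lysate, so the groups compared had 3 libraries each. Each lysate pooled tissue of 2 animals. Only the Camk2a line received Cre driven by Camk2a and tamoxifen, so line, Cre transgene and treatment cannot be told apart in any comparison between the lines. Single and tandem libraries of a line carry the same replicate numbers and may come from the same lysates. The p-values below therefore measure the spread between these 3 libraries a group, and, the tissue being assayed in bulk, more cells with the mark and more mark per cell cannot be told apart.

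The counts were reads in each region. Library totals were 3049130, 2778331 and 2709729 for Camk2a tChIP, 1828371, 1607389 and 1457261 for Rosa tChIP, 4125767, 4233144 and 4063200 for Camk2a single ChIP, and 7104660, 8644574 and 6316125 for Rosa single ChIP. At the members the median count per library ran from 53 in the third Rosa tChIP library to 469 in the second Rosa single library.

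The members matched the label of the line at most, but not all, defining markers. Over all 13871 genes with a start site in a passing region, 555 (4.00%) had one in a member, and the counts of each list here and below stand beside that share. Of 14 excitatory neuron markers whose promoter region passed the count minimum, 10 lay in members (Camk2a, Cux2, Emx1, Neurod2, Neurod6, Nptx1, Nrgn, Slc17a6, Slc17a7 and Sv2b), while among the others Bcl11b (ratio 0.96), Fezf2 (0.85) and Rorb (−0.24) did not reach the threshold and Tbr1 had no region at its start site. Of 12 pan-neuronal markers 8 were members (Elavl4, Nefl, Nefm, Rbfox3, Snap25, Stmn2, Syt1 and Tubb3). No member lay at any of 9 inhibitory neuron markers, 4 endothelial and mural markers or 9 striatal projection neuron markers with a passing region. At a share of 4.00% over all genes, lists this small are likely to hold no member, so these counts are not read as a result. Of 9 astrocyte markers 1 was a member, the bicarbonate cotransporter gene Slc4a4, and of 8 oligodendrocyte markers 1, the myelin basic protein gene Mbp. In both genes the member is not the only promoter region, and the values are given with the alternative promoters below. The same holds for the neuronal markers Cux2 and Elavl4, each of which also had a passing start-site region that was not a member. That of Cux2 had a ratio of 0.07, with means of 108 CPM in Camk2a tChIP and 103 in Rosa tChIP. That of Elavl4 had a ratio of 0.17.

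Summed over the regions of a marker list, the tChIP levels of the lines did not overlap in the 7 lists given here. The excitatory list held 2193, 2282 and 2329 CPM in Camk2a tChIP against 1125, 1105 and 1074 in Rosa tChIP. Its most abundant gene was Camk2a in Camk2a tChIP and Nptx1 in Rosa tChIP. The pan-neuronal list, led by Rbfox3, had means of 2092 ± 17.0 and 1041 ± 21.2 CPM (SD, n = 3 libraries). The inhibitory list ran the other way, at 130 ± 5.68 against 282 ± 13.9 CPM. So did the astrocyte list (580 ± 5.42 against 920 ± 24.3), the oligodendrocyte list (263 ± 4.68 against 468 ± 21.1) and the endothelial and mural list (109 ± 7.57 against 406 ± 25.03). The largest regions of the astrocyte, oligodendrocyte and endothelial and mural lists differed by group. In Camk2a tChIP they were at Slc1a2 (160 CPM), the upstream Mbp promoter (114) and Kdr (33.5). In Rosa tChIP they were at Sox9 (150 CPM), Cnp (105) and Flt1 (100). The striatal list, led by Pde10a, was at 722 ± 9.57 against 593 ± 24.1 CPM although none of its genes was a member. Several defining markers had no region at a start site and could not be read here: Npy, Slc32a1, Sst, Vip and Nkx2-1 among inhibitory markers, Gfap among astrocyte markers, Mobp, Opalin and Sox10 among oligodendrocyte markers, and Cldn5, Rgs5 and Vtn among vascular markers.

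Together the members took 5.71%, 5.84% and 5.83% of all counts in the 3 Camk2a tChIP libraries and 2.50%, 2.43% and 2.42% in the Rosa tChIP libraries. In single ChIP they took 4.03%, 3.99% and 4.01% in the Camk2a line and 3.81%, 3.80% and 3.81% in the Rosa line. The share was thus highest in Camk2a tChIP, lowest in Rosa tChIP and in between in single ChIP, where the Camk2a line was above the Rosa line by much less than in tChIP. The median member was at 86.6, 88.9 and 88.6 CPM in Camk2a tChIP, at 37.2, 36.7 and 36.4 in Rosa tChIP, at 58.4, 58.3 and 58.6 in Camk2a single ChIP, and at 55.7, 54.3 and 54.9 in Rosa single ChIP. All regions passing the minimum had medians between 56.4 and 58.5 CPM in each of the 12 libraries.

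Set against the single ChIP of its own line, the median member was higher in Camk2a tChIP (log2 0.61, all passing regions −0.02) and lower in Rosa tChIP (log2 −0.55, all passing regions 0.05). Of the 601, 530 were above single ChIP in the Camk2a line and below it in the Rosa line, 63 were above it in both, and 8 were below it in both. For most members the ratio thus combined a level above single ChIP in the Camk2a line with a level below it in the Rosa line. These comparisons share the tChIP values with the selection.

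The ratio had a median of 1.23 (quartiles 1.10 and 1.38) and a highest value of 2.21, so the set is a continuous tail with no gap at the threshold. Just inside it lay the promoter regions of BC030476 (ratio 1.0005; mean 13.6 CPM in Camk2a tChIP, 6.81 in Rosa tChIP), Crym (27.8 and 13.9 CPM), Ypel4 (120 and 59.97 CPM), A330070K13Rik (18.1 and 9.04 CPM) and Sema4f (53.1 and 26.5 CPM). Just outside lay those of Scn3a (ratio 0.9993; 48.7 and 24.4 CPM), Sox5 (56.2 and 28.1 CPM), Lmo3 (116 and 57.9 CPM), Gm17322 (20.4 and 10.2 CPM) and Barx2 (45.1 and 22.6 CPM). At BC030476 the Camk2a tChIP libraries held 9.84, 14.0 and 17.0 CPM and the Rosa tChIP libraries 5.47, 8.09 and 6.86. The lowest Camk2a library lay just above the highest Rosa library there.

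The largest ratio, 2.21, belonged to the promoter region of Camk2a itself (chr18:61084429-61090503, mm9), which encodes the alpha subunit of calcium/calmodulin-dependent protein kinase II, a kinase of the postsynaptic density. The 3 Camk2a tChIP libraries held 323, 346 and 349 CPM there, the Rosa tChIP libraries 77.7, 72.8 and 69.3, the Camk2a single ChIP libraries 258, 247 and 235, and the Rosa single ChIP libraries 170, 166 and 170. Every Camk2a library lay above every Rosa library of the same assay, and the single ChIP of the Rosa line lay between the tChIP groups. Ablim1, which encodes an actin-binding LIM protein, had the next ratio (1.89) at an internal promoter, with 31.2, 32.4 and 35.4 CPM in Camk2a tChIP against 10.9, 6.84 and 8.92 in Rosa tChIP. Its single ChIP groups overlapped, at 19.6, 14.6 and 16.2 CPM in the Camk2a line and 15.9, 16.0 and 11.9 in the Rosa line.

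Adcyap1, the gene of the neuropeptide PACAP, followed with a ratio of 1.86. Its region held 129, 121 and 147 CPM in Camk2a tChIP, 43.8, 31.1 and 34.3 in Rosa tChIP, 53.1, 49.8 and 54.9 in Camk2a single ChIP and 39.6, 43.5 and 42.0 in Rosa single ChIP. The Camk2a tChIP libraries stood far above the other 9, which ran from 31.1 to 54.9 CPM. The somatostatin receptor gene Sstr3 (ratio 1.79) held 68.2, 67.7 and 62.7 CPM in Camk2a tChIP against 21.3, 17.4 and 18.5 in Rosa tChIP. In single ChIP it was at 37.1, 30.5 and 31.5 CPM in the Camk2a line and 28.3, 26.8 and 27.5 in the Rosa line, groups that did not overlap, with a difference short of the test's threshold (log2 difference 0.23 ± 0.10 (SE), edgeR adjusted p = 0.121). Arpp19, which encodes a cAMP-regulated phosphoprotein, shared that ratio with a different make-up. Its Camk2a tChIP libraries (82.3, 96.8 and 103 CPM) were no higher than the Camk2a single ChIP libraries (94.5, 96.9 and 103), and its Rosa tChIP libraries were low (29.0, 26.1 and 26.8). The rest of the 12 largest ratios were Slc6a7 (1.85), the copine gene Cpne4 (1.75), an internal promoter of the presynaptic adhesion gene Nrxn3 (1.73), Ipcef1 (1.69), and 3 regions away from any annotated start site, described with the positions below.

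The single ChIP libraries were not used to choose the members, so the difference between the lines in single ChIP was tested. If they share lysates with the tChIP libraries, a difference between the animals pooled for the lines enters both the choice and this test. The test was by edgeR over all 17993 regions with Benjamini-Hochberg adjustment and a threshold of 0.01. Of the 601 members, 15 were higher in the Camk2a line (2.50%; among all passing regions 0.819%), and 0 were lower (among all passing regions 1.46%). At an unadjusted edgeR p under 0.05, 128 members were higher (21.3%; all passing regions 9.37%) and 14 were lower (2.33%; all passing regions 13.4%), and by DESeq2 3 were past the threshold upward (all passing regions 0.135%) and 0 downward (all passing regions 0.0474%). The single ChIP groups did not overlap, with the Camk2a line above, at 171 members (28.5%; all passing regions 14.6%), and with it below at 12 (2.00%; all passing regions 9.22%). The median log2 difference was 0.06 in the members and −0.01 in all passing regions, and 436 members (72.5%) were above 0 against 46.1% of all passing regions.

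The log2 difference varied with the level of the regions. Regions with little single ChIP signal per kb had higher log2 differences whether or not they were members, and members were frequent among them. In the lowest quartile of level (1.85 to 15.6 CPM per kb, mean of the 6 single ChIP libraries) the median log2 difference was 0.16 in the 205 members and 0.16 in all 3695 regions. In the next quartile it was 0.03 in 325 members and 0.03 in all regions, in the quartile above −0.004 in 66 members and −0.03 in all, and in the highest −0.09 in 5 members and −0.08 in all. Among regions over 2000 bp in the lowest quartile it was 0.13 in members and 0.07 in all. The share above 0 was higher in members at each level, from the lowest quartile up 89.3% against 78.9%, 68.0% against 59.8%, 47.0% against 33.8% and 20.0% against 11.9%. So was the share with the Camk2a line above and no overlap, at 37.1% against 30.1%, 25.8% against 18.6%, 15.2% against 7.31% and 20.0% against 2.35%, the last with 1 of 5 members in both shares. The number past the threshold differed more: 9 of 205 members against 2.30% of all regions in the lowest quartile, 4 of 325 against 0.677% in the next, 2 of 66 against 0.244% in the quartile above, and 0 of 5 in the highest. Within the members the share called went up with the ratio that chose them, from 3 of 322 at ratios from 1 to 1.25 (0.932%) to 7 of 222 from 1.25 to 1.5 (3.15%) and 5 of 57 above (8.77%), of which 2 were Camk2a and Slc6a7. Outside the members it did not follow the ratio, at 1.57% from 0.5 to 1, 0.630% from 0 to 0.5, 0.456% from −0.5 to 0, 1.98% from −1 to −0.5 and 0.835% below. The median log2 difference in these classes was 0.05, 0.07 and 0.12, but it was also above 0 in regions with ratios under −1 (0.04), which are low in level too. The part of level in the members' shift was not tested beyond these classes.

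The summed level of the oligodendrocyte list differed between the lines in single ChIP as well. It was 488, 513 and 488 CPM in the Camk2a line and 530, 540 and 546 in the Rosa line (log2 −0.12), with every Camk2a library below every Rosa library. Of its 8 markers with a passing region, 3 were lower in the Camk2a line: Olig1 (log2 difference −0.33, edgeR adjusted p = 0.00118), Cnp (−0.19, 0.00877) and Olig2 (−0.24, 0.00932). Among all passing regions 1.46% were called lower. Olig1 and Olig2 are transcription factors of the lineage and Cnp is a myelin enzyme. None of these 3 regions is a member. The other passing regions of the list were not called, with log2 differences from −0.17 at the downstream Mbp promoter to 0.07 at the upstream one. The sum of the excitatory list was higher in the Camk2a line, at 1768, 1755 and 1742 CPM against 1662, 1667 and 1665 (log2 0.08). Camk2a alone gave 247 against 169 of it, and the median log2 difference of the list was −0.023. The striatal list was also higher, at 559 ± 14.3 against 545 ± 1.19 CPM (log2 0.04), with every Camk2a library above every Rosa library. The astrocyte list was at 731 ± 24.5 against 696 ± 7.47 CPM, the inhibitory list at 241 ± 8.76 against 229 ± 8.64, the pan-neuronal list at 1671 ± 24.1 against 1661 ± 11.0, and the endothelial and mural list at 274 ± 9.34 against 270 ± 11.1. The part of a difference in cell composition between the tissues in the single ChIP results was not tested.

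Of the 15 called members, 3 lie side by side on chromosome 18: Arsi, Camk2a and Slc6a7. Arsi (chr18:61070973-61072453), which encodes an arylsulfatase, had the largest difference. Its region was at 22.8, 23.6 and 26.1 CPM in Camk2a single ChIP and 5.35, 6.83 and 6.17 in Rosa single ChIP, and at 37.7, 39.2 and 42.1 against 14.8, 14.3 and 15.1 CPM in tChIP. Every Camk2a library was above every Rosa library of its assay, with a single ChIP log2 difference of 1.94 ± 0.15 (SE; edgeR adjusted p = 1.70e-26). At Camk2a the single ChIP difference was 0.52 ± 0.04 (edgeR adjusted p = 3.74e-27). Slc6a7 (chr18:61171065-61174358), the gene of the brain proline transporter, was at 76.8, 75.4 and 70.1 CPM in Camk2a single ChIP and 47.0, 42.1 and 45.9 in Rosa single ChIP, with no overlap and a log2 difference of 0.70 ± 0.07 (edgeR adjusted p = 2.79e-16). In tChIP it was at 135, 124 and 132 CPM against 37.2, 36.1 and 35.0.

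Of the 13 called members followed through 12 alternative settings of the single ChIP test, these 3 were past the threshold in all 12, and the other 10 fell short in 5 to 7. Within 500 kb of the Camk2a region 17 regions were counted and 16 passed the minimum. The remaining member among them, at the synaptopodin gene Synpo (ratio 1.11), had single ChIP values of 64.2, 67.6 and 58.1 CPM against 62.8, 55.5 and 57.2 (log2 0.09, edgeR adjusted p = 0.47), groups that overlap. The other 12 had ratios from −2.75 (Pdgfrb, a mural cell receptor) to 0.69 (the other Synpo promoter), and none was called. The difference in single ChIP was thus seen at 3 neighbouring promoters and not at those on either side, Tcof1 (log2 0.02, edgeR adjusted p = 0.938) and Pdgfrb (0.02, 0.900). The Camk2a line carries a Cre transgene driven by the Camk2a promoter, and the deposited counts do not tell reads of a transgene from reads of the native locus. The part of additional copies of the locus was not tested, and the input libraries of both lines were not used here. Without the 4 members of this interval, 12 of 597 (2.01%) were called higher against 0.799% of all passing regions outside it, with a median log2 difference of 0.06.

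The remaining called members were closer to the threshold. Bdnf encodes the neurotrophin BDNF and is driven from several promoters, and the called region (chr2:109515765-109518551) was at 48.7, 46.8 and 46.0 CPM in Camk2a single ChIP and 37.0, 36.2 and 38.2 in Rosa single ChIP. The groups were apart by more than either spread (log2 0.32 ± 0.08, edgeR adjusted p = 0.00711). The tChIP values were 76.4, 72.7 and 85.6 CPM against 34.5, 22.4 and 33.6. The sodium channel gene Scn1a was called at its upstream promoter (chr2:66277518-66280343), with 39.3, 36.9 and 40.4 CPM against 32.0, 28.7 and 29.0 (log2 0.35 ± 0.09, edgeR adjusted p = 0.00785). All 3 Camk2a libraries were above all 3 Rosa libraries. Adcyap1, with the values given above, differed by 0.30 ± 0.08 (edgeR adjusted p = 0.00762).

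Slc4a4 was at 48.2, 53.9 and 53.2 CPM in Camk2a single ChIP and 41.1, 40.3 and 40.7 in Rosa single ChIP (log2 0.32 ± 0.08, edgeR adjusted p = 0.00474). Arpp19 differed by 0.23 ± 0.06 (edgeR adjusted p = 0.00336), with single ChIP values of 83.2, 81.7 and 80.3 CPM in the Rosa line, all below the Camk2a line. Hkdc1, which encodes a hexokinase domain protein, was at 10.9, 8.27 and 9.11 CPM against 4.50, 5.44 and 6.65 (log2 0.75 ± 0.19, edgeR adjusted p = 0.0075). The groups stood apart, but on low counts. BC030476, among the narrowest members, was lower still, at 2.67, 6.14 and 4.18 CPM against 1.83, 1.74 and 1.74 (log2 1.26 ± 0.30, edgeR adjusted p = 0.00345), with the first Camk2a library near the Rosa libraries. The others were Gm2824 (0.57, 0.00239), 5031439G07Rik (0.49, 0.00536), Tmem130 (0.35, 0.00931), Zbtb38 (0.22, 0.00446) and A830092H15Rik (0.17, 0.0092), each given with its log2 difference and edgeR adjusted p, and in each the 3 Camk2a libraries were above the 3 Rosa libraries. The calls at these 12 regions depended on single libraries, and none of the 12 was called without the second library of either line: of the 15 called members 6, 3 and 5 were still called without the first, the second and the third Camk2a single ChIP library, and 9, 3 and 5 without the first, the second and the third Rosa single ChIP library.

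Of 28 genes of calcium and calmodulin signalling 7 were members, and 1 of them, Camk2a, was called in single ChIP. The beta subunit gene of the same kinase, Camk2b, had a ratio of 1.07, with 147, 175 and 154 CPM in Camk2a tChIP against 71.1, 84.6 and 70.7 in Rosa tChIP. Its single ChIP values, 122, 116 and 118 CPM against 123, 115 and 119, overlapped fully (log2 −0.03 ± 0.05). The kinase gene Camk1g (1.39), the kinase-like Camkv (1.08), the calcium sensor hippocalcin Hpca (1.36), the protein kinase C gamma gene Prkcc (1.46) and the calmodulin-binding neurogranin gene Nrgn (1.28) were the others, with single ChIP log2 differences from −0.10 to 0.17. Nrgn was at 162, 175 and 177 CPM in Camk2a tChIP and 74.4, 67.8 and 68.6 in Rosa tChIP, yet at 144, 138 and 146 against 144, 137 and 144 in single ChIP. The tChIP libraries separated the lines at Nrgn and the single ChIP libraries did not.

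Among receptors for glutamate, 4 of 16 ionotropic genes were members: the NMDA receptor genes Grin1 (1.29) and Grin2a (1.53) and the AMPA receptor genes Gria1 (1.24) and Gria4 (1.04). Grin1 had the highest level per length of all members, 42.6 CPM per kb over the single ChIP libraries, followed by Cdk5r2, the activator of the neuronal kinase CDK5, at 40.3, Snhg11 at 38.2, Lingo1 at 37.4 and a Rbfox3 promoter at 37.0. The Grin1 region was at 95.8, 87.8 and 97.1 CPM in Camk2a tChIP and 38.8, 43.5 and 32.3 in Rosa tChIP. In single ChIP it was at 83.6, 74.9 and 81.5 CPM against 82.3, 86.1 and 83.3, groups that overlap. Among metabotropic receptor genes Grm2 (1.43) and Grm7 (1.16) were members. Grm2, an autoreceptor that lowers glutamate release, held 104, 110 and 110 CPM in Camk2a tChIP and 39.4, 37.9 and 43.2 in Rosa tChIP. Its single ChIP values, 57.9, 64.3 and 77.3 CPM against 58.0, 52.6 and 53.2, overlapped at the first libraries (log2 0.25 ± 0.07, edgeR adjusted p = 0.0135). Grm2 passed the threshold under 3 alternatives, library totals alone and leaving out the first library of either line. Among GABA receptors the subunit gene Gabra5 (1.52) was a member.

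Of 29 presynaptic genes 12 were members, among them Cplx1, Cplx2, Doc2a, Nrxn3, Rims2, Rph3a, Slc17a7, Snap25, Sv2b, Sv2c and Syt1. Slc17a7, the vesicular glutamate transporter VGLUT1, had a ratio of 1.59, with 122, 134 and 119 CPM in Camk2a tChIP against 42.1, 41.7 and 41.2 in Rosa tChIP. In single ChIP it ran from 94.5 to 99.2 CPM in the Camk2a line and from 94.4 to 99.3 in the Rosa line, so that the lines overlapped there (log2 −0.02 ± 0.05). Snap25, a SNARE protein of all neurons, had 182, 190 and 190 CPM against 68.9, 68.4 and 64.5 in tChIP and 175, 176 and 174 against 171, 168 and 170 in single ChIP (log2 0.01 ± 0.04). Of 25 postsynaptic scaffold and adhesion genes 12 were members: Dlg1, Dlg2, Dlgap1, Dlgap2, Lrrtm2, Lrrtm3, Lrrtm4, Shank1, Shank2, Shank3, Slitrk1 and Slitrk3. Their ratios ran from 1.01 at Slitrk1 to 1.49 at Dlg1, and none was called in single ChIP. The median log2 single ChIP difference of the member regions was 0.07 in the postsynaptic and 0.07 in the presynaptic list, against −0.02 and 0.01 over all passing genes of these lists. Other lists differed in this: it was 0.089 against −0.025 for calcium and calmodulin signalling, 0.12 against −0.037 for cortical transcription factors, 0.05 against −0.05 for immediate early genes and 0.079 against −0.014 for guidance genes, but −0.044 against −0.033 for ionotropic glutamate receptors, 0.00 against 0.00 for pan-neuronal markers, −0.003 against −0.023 for excitatory markers and 0.001 against 0.02 for cadherins. No test of these differences was made.

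Ion channels and receptors of other kinds followed. Of 65 potassium channel genes 18 were members, from Kcnv1 (1.51) and Kcnk9 (1.47) to Kcnj3 and Kcnab1 (1.02 each), and of 28 sodium and calcium channel genes 9, Scn1a, Scn2a1, Scn2b, Scn9a, Cacna1e, Cacna1i, Cacnb2, Cacng2 and Cacng3. Of 82 G protein-coupled and neuropeptide receptor genes 20 were members, among them the serotonin receptors Htr1a (1.63), Htr1f (1.35), Htr5a (1.16) and Htr5b (1.19), the orphan receptor Gpr26 (1.63) and the muscarinic receptor Chrm1 (1.44). Htr5b and Npbwr1 were among the weakest regions in single ChIP. Htr5b held 2.91, 4.25 and 4.18 CPM in Camk2a single ChIP and 2.53, 2.78 and 3.17 in Rosa single ChIP, but 17.7, 17.6 and 16.6 in Camk2a tChIP and 7.66, 6.22 and 8.92 in Rosa tChIP. Both tChIP groups were above both single ChIP groups at Htr5b.

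Of 21 cortical transcription factors 5 were members (Cux2, Emx1, Neurod1, Neurod2 and Neurod6), Cux2 at its region of ratio 1.32 and not at that of 0.07. Neurod2, a bHLH factor of maturing excitatory neurons, had 173, 173 and 189 CPM in Camk2a tChIP and 76.6, 70.3 and 70.0 in Rosa tChIP, against 139, 135 and 132 and 129, 138 and 126 in single ChIP. Only the tChIP groups were apart. Of 20 immediate early genes, which respond to neuronal activity, 4 were members: Npas4 (1.61), Bdnf, Nptx2 (1.30) and Egr4 (1.20). Npas4, a factor induced by calcium influx, held 207, 183 and 194 CPM in Camk2a tChIP against 62.9, 61.6 and 67.2 in Rosa tChIP, and 119, 123 and 130 against 128, 109 and 117 in single ChIP, where the lines overlapped. At Egr4 every Camk2a single ChIP library (78.3, 76.5 and 77.0 CPM) was below every Rosa library (81.1, 79.7 and 82.2), a difference of −0.09 ± 0.06 that missed the threshold (edgeR adjusted p = 0.345).

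Solute carriers gave 15 of 210 genes, guidance genes (semaphorins, ephrins, netrins and their receptors) 8 of 58, cadherins 3 of 15, and the clustered protocadherins 1 of 2. Some lists gave none: 0 of 72 cytosolic ribosomal protein genes, 0 of 75 oxidative phosphorylation genes, 0 of 26 histone cluster genes, 0 of 288 Zfp zinc finger genes and 0 of 3 Hox genes. The median ratio of these lists was −0.04, −0.10, −0.40, −0.10 and −0.41, and the histone, Hox and protocadherin lists are too small to be read. Beyond the 15 called members, those nearest the threshold in single ChIP among the named genes were Grm2, the ephrin receptor gene Epha6 (log2 0.20, edgeR adjusted p = 0.0142), Dab2ip (0.27, 0.0271), Gpm6a (0.15, 0.0291), a downstream Bdnf promoter (0.22, 0.0335) and the potassium channel gene Kcnh7 (0.17, 0.037).

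The members were wide. Their median width was 2981 bp (quartiles 2000 and 4007) against 1971 bp for all passing regions. The share of regions that were members was 0.749% up to 1000 bp (12 of 1602), 2.33% from 1000 to 2000 bp (139 of 5971), 3.55% to 3000 bp (155 of 4362), 8.40% to 4000 bp (144 of 1715), 11.6% to 5000 bp (80 of 692) and 16.2% above (71 of 438). Width and level are linked through the count minimum, since a wide region collects more counts. The widest members were Arpp21 (7792 bp), which encodes a cAMP-regulated phosphoprotein, the ubiquitin ligase gene Fbxw7 (7486 bp) and the histone methyltransferase family gene Prdm8 (7307 bp), and the narrowest a region 1421 bp from the start site of Scn2b (674 bp), BC030476 (743 bp) and Pnmal1 (776 bp). The Arpp21 region held 243, 248 and 235 CPM in Camk2a tChIP, 101, 95.2 and 97.4 in Rosa tChIP, 260, 261 and 259 in Camk2a single ChIP and 238, 241 and 242 in Rosa single ChIP. Here Camk2a tChIP was below the single ChIP of its own line, and the ratio came from the drop in Rosa tChIP.

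Members were not strong per length. The median member had 19.1 CPM per kb in single ChIP against 27.2 for all passing regions. Of the quartiles of that level, members made up 5.55% of the lowest, 8.80% of the next, 1.79% of the quartile above and 0.135% (5 of 3695) of the highest. In regions over 5000 bp the medians were 24.2 CPM per kb in members and 30.6 in all, and from 1000 to 2000 bp 10.8 and 23.9. In members from 2000 to 3000 bp the median single ChIP level was 45.8 CPM in the Camk2a line and 41.6 in the Rosa line, and over 5000 bp 144 and 139.

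They were also poor in CpG. The observed over expected CpG ratio had a median of 0.393 in members and 0.602 in all passing regions, and 66 members (11.0%) reached 0.6, a value often used for CpG islands, against 50.4% of all. Members made up 11.7% of the quartile of regions lowest in CpG, 2.79% of the next, 1.24% of the quartile above and 0.487% (18 of 3695) of the highest. The difference held at every width above 1000 bp, with medians from 0.378 to 0.398 in members and from 0.522 to 0.633 in all regions. Below 1000 bp the medians were 0.541 and 0.557. GC content differed less, at 52.8% against 54.2%. At Camk2a the ratio was 0.219, at Chrm1 0.159 and at Sstr3 0.179, while Egr4 (0.81) and Npbwr1 (0.796) were among the members richest in CpG.

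Of the 601 members, 506 (84.2%) overlapped an annotated start site, against 83.9% of all passing regions. Start sites of coding genes were overlapped by 488, of noncoding genes alone by 18, while 56 (9.32%; all passing regions 6.73%) lay inside genes and 39 (6.49%; all passing regions 9.36%) between genes. Coding start sites on both strands, as at divergent promoters, were present in 12 members (2.00%) against 7.75% of all. The 489 coding genes with a start site in a member were long, with a median of 60.04 kb against 25.6 kb for the 12491 coding genes with a passing region, and 198 of them (40.5%) were over 100 kb against 15.6%. Members lay on all 19 autosomes, making up from 2.39% of the passing regions on chromosome 17 to 5.50% on chromosome 15. Within 100 kb of each other lay 72 members in 32 groups, and 6 groups had 3 or more: Npas4 with Rin1, Tmem151a and Cnih2, 4 regions of Shank2, Arsi with Camk2a and Slc6a7, Rtkn with Gm15624 and Dctn1, 3 regions of Neurod2, and 2 of Prdm8 with Fgf5.

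Many of the genes had several promoters, of which some were members and others were not. Of the 489 genes 119 (24.3%) had 2 or more start-site regions passing the minimum, against 5.59% of all 12491. In 111 of the 119 a member and a non-member stood in the same gene, and in 15 genes 2 or more regions were members. The widest contrast was at Rtkn, which encodes rhotekin. Its downstream promoter (chr6:83091666-83093642, ratio 1.03) held 64.3, 57.9 and 59.4 CPM in Camk2a tChIP and 36.1, 28.6 and 24.0 in Rosa tChIP. Its upstream promoter (chr6:83085639-83088992, ratio −2.87) held 10.2, 6.48 and 10.3 CPM in Camk2a tChIP and 66.2, 59.7 and 71.4 in Rosa tChIP. The order of the lines was thus inverted within 10 kb. In single ChIP both lay between 31.1 and 47.0 CPM, with 36.6, 43.5 and 39.6 against 34.9, 31.1 and 32.3 at the member and 43.9, 43.5 and 43.1 against 40.0, 47.0 and 41.6 at the other.

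The phosphodiesterase gene Pde4b had 5 such regions. Its member (chr4:101759657-101762001, ratio 1.34) held 105, 109 and 90.8 CPM in Camk2a tChIP and 40.5, 44.2 and 35.7 in Rosa tChIP, and a downstream promoter (chr4:102242533-102245852, ratio −2.46) 12.1, 11.2 and 13.3 against 69.5, 66.6 and 65.9. The other 3 had ratios from −0.14 to 0.71. Of the 3 promoters of Dock9, a guanine exchange factor for Cdc42, the member (ratio 1.18) lay between others with ratios of −2.33 and −0.16. Ablim1 had 4, its member at 1.89 and the others at −1.60, 0.45 and 0.45. The Arf exchange factor gene Iqsec1 ran from 1.18 at the member to −1.99, and Dab2ip, a Ras GTPase activator, from 1.60 to −1.48. In single ChIP none of these regions of Rtkn, Pde4b, Dock9, Ablim1, Iqsec1 and Dab2ip was past the threshold in either direction.

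The glial marker genes among the members belong here. The Mbp member is the upstream promoter of the locus, which drives the golli transcripts (ratio 1.11), with 109, 121 and 113 CPM in Camk2a tChIP against 51.4, 51.0 and 57.0 in Rosa tChIP. The downstream Mbp promoter, 6315 bp wide, was at 16.1, 21.2 and 15.9 against 43.8, 42.3 and 57.0 CPM (ratio −1.43). At Slc4a4 the member is the downstream promoter (ratio 1.399), with 65.3, 74.1 and 67.9 CPM against 32.8, 21.8 and 24.0, and the upstream promoter had a ratio of −0.33. All 15 genes with more than 1 member start-site region had 2, and those with the highest ratios are given: Nrxn3 had ratios of 1.10 and 1.73, Scn1a 1.29 and 1.64, the exchange factor gene Kalrn 1.53 and 1.30, Mcf2l 1.33 and 1.48, Epb4.9 1.41 and 1.48, and Shank3 1.12 and 1.47. Start-site regions that were not members were also present at Mcf2l (ratios −0.52, −1.20 and −0.51), Kalrn (−0.29 and 0.31), Shank3 (0.33) and Nrxn3 (0.40). Scn1a and Epb4.9 had no other passing start-site region. The third Bdnf region, next to the called member, missed the threshold by little, at 0.99.

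Members outside coding promoters included some with large ratios. A region between genes (chr7:68758142-68760295) had a ratio of 1.73, with 27.2, 32.8 and 27.3 CPM in Camk2a tChIP, 8.20, 9.95 and 8.23 in Rosa tChIP, 33.9, 31.7 and 28.1 in Camk2a single ChIP and 27.7, 25.9 and 22.8 in Rosa single ChIP. Its nearest annotated start site was 58498 bp away. Another (chr15:20378394-20382305, ratio 1.71), 3912 bp wide and 214200 bp from the nearest start site, held 103, 112 and 107 CPM in Camk2a tChIP and 29.0, 31.7 and 37.7 in Rosa tChIP. Its single ChIP levels of 74.9, 78.9 and 76.5 against 68.7, 73.6 and 73.5 CPM were above the median of all passing regions. The next (chr2:174423885-174426032, ratio 1.69) was at 58.4, 55.4 and 49.8 against 17.5, 18.0 and 15.1 CPM in tChIP. Others of large ratio lay inside Rabgap1l (1.67), Gm20388 (1.62) and Osbpl8 (1.57), 11547 bp from the start of Prdm8 (1.59) and 354010 bp from that of Robo1 (1.63). None of these 8 was past the threshold in single ChIP.

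Of the 18 members at noncoding start sites alone, the largest ratios were at A830036E02Rik (1.44), Gm16950 (1.41), the imprinted RNA gene Meg3 (1.37), the Mir137 locus (1.37), Gm13716 (1.36), Gm2824 (1.32), B230216N24Rik (1.28) and Gm15894 (1.27). Meg3 was at 53.1, 48.2 and 45.4 CPM in Camk2a tChIP, 18.6, 14.9 and 23.3 in Rosa tChIP, 55.3, 54.6 and 53.7 in Camk2a single ChIP and 47.4, 51.8 and 50.2 in Rosa single ChIP. Only its Rosa tChIP libraries stood apart from the rest. Gm2824 was called in single ChIP, at 20.1, 19.8 and 17.5 CPM against 14.1, 12.3 and 11.4.

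MicroRNA precursors start in 3 members: Mir137 (ratio 1.37), Mir129-2 (1.16) and Mir7b (1.11). The Mir137 region, 6697 bp wide (chr3:118132659-118139355), held 190, 232 and 209 CPM in Camk2a tChIP, 88.1, 82.7 and 73.4 in Rosa tChIP, 153, 148 and 152 in Camk2a single ChIP and 133, 134 and 143 in Rosa single ChIP. The lines did not overlap in either assay (single ChIP log2 0.12 ± 0.04, edgeR adjusted p = 0.0887). The Mir129-2 region, 7112 bp wide, held 170, 167 and 168 CPM in Camk2a tChIP against 74.9, 69.7 and 81.0 in Rosa tChIP, and 91.9, 91.9 and 92.3 against 83.3, 80.9 and 83.6 in single ChIP (log2 0.13 ± 0.06, edgeR adjusted p = 0.144). The mature sequences from these 3 genes (RefSeq, GRCm38.p6) are shown because, apart from AC122183.1, no other annotated microRNA precursor starts in a member. AC122183.1 is annotated as a microRNA gene in the Mir137 region, and no mature sequence was found under its symbol. They run 5′ to 3′, with the seed (bases 2 to 8) in capitals. Promoters of longer host transcripts of microRNAs are not covered by this. The 6 seeds differ, so no seed is shared among them.
miR-7b-5p: uGGAAGACuugugauuuuguuguu
miR-7b-3p: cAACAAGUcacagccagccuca
miR-129-2-3p: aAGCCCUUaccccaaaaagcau
miR-129-5p: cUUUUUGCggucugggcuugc
miR-137-5p: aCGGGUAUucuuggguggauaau
miR-137-3p: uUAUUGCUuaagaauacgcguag

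Windows of 300 bases, from 250 before to 50 after the coding start site nearest the middle of the region, could be read from mm9 for 487 members and 12065 passing regions. They were poorer in CpG in members, with a median observed over expected ratio of 0.564 against 0.799, and 45.2% against 78.7% of them reached 0.6. Letters bound by known factors were searched on both strands, and a match is a description of letters and not of binding. The letters CCGGAAG of ETS factors were in 5 member windows (1.03%) against 16.0% of all, the NRF1 letters GCGCATGCG in 0 against 3.04%, and the SP letters GGGCGG in 47.6% against 68.8%. These contain CG. In the windows below the median CpG ratio, where CpG was not matched between members and others, the shares were ETS 1.26% of 396 members against 12.2% of 6032 windows, NRF1 0 against 1.77%, SP 40.7% against 58.9%. The EGR letters GCGTGGGCG were in 0.205% of member windows against 1.31%, and in the same windows an SP and an EGR match can share letters.

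Most of the other motifs searched were more frequent in members. The letters TTCAGCACC, part of the REST element through which neuronal genes are silenced elsewhere, was in 9 windows (1.85%) against 0.448% of all. The E-box CAGATG was in 17.2% against 10.1% (in windows low in CpG 19.4% against 13.1%) and the E-box CAGCTG in 20.3% against 16.0%. The cAMP response element TGACGTCA was in 12 windows (2.46%, all 3.13%), the AP-1 letters TGANTCA in 4.31% (3.59%), the MEF2 letters CTAAAAATA in 2 windows (0.411%, all 0.24%), the RFX letters GTTGCCATG in 1.03% (0.597%), the T-box letters AGGTGTGA in 1.03% (0.655%) and TATAAA in 5.95% (4.62%). The cAMP response element also contains CG, and in windows low in CpG it was in 2.53% of members against 2.44% of all. Counts of 12 and fewer windows are small, and no test was made of any motif.

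The following 7 promoters show such matches in their sequence context. They were chosen after the matches were seen, as members with a match upstream of the start site, and are the 250 bases before it (225 for Snap25, where an annotated exon begins), from mm9 on the gene's strand, 5′ to 3′, with the motif in capitals. Snap25 (chr2:136538964-136539188, plus strand) and the heparan sulfate sulfotransferase gene Hs3st2 (chr7:128535560-128535809, plus strand) hold TGACGTCA. Grm2 (chr9:106558441-106558690, minus strand) and the ubiquitin ligase gene March4 (chr1:72583505-72583754, minus strand) hold TTCAGCACC, at March4 on the other strand. Nrgn (chr9:37360331-37360580, minus strand) and Tmem130 (chr5:145522519-145522768, minus strand) hold the E-box CAGATG, read on the other strand as CATCTG. Phyhip (chr14:70858080-70858329, plus strand), which encodes a phytanoyl-CoA hydroxylase interacting protein, holds the MEF2 letters on the other strand and no CpG in the 250 bases.
Snap25: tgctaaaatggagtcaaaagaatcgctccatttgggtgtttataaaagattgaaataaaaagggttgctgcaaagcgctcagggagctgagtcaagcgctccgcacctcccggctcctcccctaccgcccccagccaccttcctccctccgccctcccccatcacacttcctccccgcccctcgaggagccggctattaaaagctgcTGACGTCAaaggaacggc
Hs3st2: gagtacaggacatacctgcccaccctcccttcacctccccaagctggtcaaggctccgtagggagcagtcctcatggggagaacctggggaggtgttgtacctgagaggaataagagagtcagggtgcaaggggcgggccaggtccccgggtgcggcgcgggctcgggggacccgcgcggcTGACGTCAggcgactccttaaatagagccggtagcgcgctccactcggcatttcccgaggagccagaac
Grm2: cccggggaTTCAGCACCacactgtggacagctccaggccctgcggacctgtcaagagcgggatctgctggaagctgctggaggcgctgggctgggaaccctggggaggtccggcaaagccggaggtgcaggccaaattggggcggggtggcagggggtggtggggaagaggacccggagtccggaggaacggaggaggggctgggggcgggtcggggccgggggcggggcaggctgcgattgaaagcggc
March4: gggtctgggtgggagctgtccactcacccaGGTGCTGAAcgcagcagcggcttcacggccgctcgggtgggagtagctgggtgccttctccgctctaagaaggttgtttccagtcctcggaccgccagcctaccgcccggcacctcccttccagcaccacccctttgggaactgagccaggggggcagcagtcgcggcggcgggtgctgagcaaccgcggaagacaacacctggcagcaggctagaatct
Nrgn: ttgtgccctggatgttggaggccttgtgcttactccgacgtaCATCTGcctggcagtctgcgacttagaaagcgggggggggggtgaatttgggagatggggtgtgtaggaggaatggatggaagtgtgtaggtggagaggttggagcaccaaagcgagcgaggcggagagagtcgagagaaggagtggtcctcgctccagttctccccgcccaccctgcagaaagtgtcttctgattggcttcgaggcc
Tmem130: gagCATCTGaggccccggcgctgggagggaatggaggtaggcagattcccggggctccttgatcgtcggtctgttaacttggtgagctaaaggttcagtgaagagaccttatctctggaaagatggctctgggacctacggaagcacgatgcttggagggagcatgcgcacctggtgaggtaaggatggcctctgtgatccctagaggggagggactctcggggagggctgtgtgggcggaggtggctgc
Phyhip: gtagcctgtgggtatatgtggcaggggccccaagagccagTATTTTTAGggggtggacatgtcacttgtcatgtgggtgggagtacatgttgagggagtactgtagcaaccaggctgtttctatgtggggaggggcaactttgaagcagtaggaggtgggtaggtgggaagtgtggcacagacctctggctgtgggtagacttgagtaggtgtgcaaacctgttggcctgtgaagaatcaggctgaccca

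Of these 7 genes, Hs3st2 (ratio 1.39) was at 112, 130 and 121 CPM in Camk2a tChIP against 45.4, 52.3 and 41.2 in Rosa tChIP, and at 74.7, 72.1 and 59.8 against 70.7, 68.4 and 63.6 in single ChIP. March4 (1.31) was at 104, 119 and 111 CPM against 47.6, 44.8 and 42.5, and at 64.0, 65.4 and 63.7 against 62.2, 68.1 and 64.1 in single ChIP. Phyhip (1.36) was at 200, 199 and 187 CPM against 79.3, 75.3 and 73.4, and at 146, 149 and 145 against 148, 143 and 140 in single ChIP. The rule fixed the tChIP difference of all 7, and in single ChIP the lines were close or overlapping at these 3, as at Snap25 and Nrgn. Tmem130 was the only one of the 7 past the threshold in single ChIP, with 38.8, 36.9 and 36.4 CPM in Camk2a single ChIP against 31.2, 26.1 and 29.3 in Rosa single ChIP, and with 1 Camk2a tChIP library (38.7 CPM) well below the other 2 (57.7 and 64.8). Grm2, with the values given above, was close to the threshold.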

How the data were processed

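The region counts are those deposited by the authors, who, by the submitters' processing notes, removed repeat reads with Bowtie2 2.1.0, mapped the rest to mm9 with Bowtie 1.0.0, removed duplicates with SAMtools 0.1.19, called peaks with MACS, and counted reads with bedtools 2.17.0 (base calls by bcl2fastq 1.8.4, trimming by FASTX). The 12 input and FLAG-only libraries were not used. Single ChIP was tested with edgeR 4.0.16 (TMM, quasi-likelihood F test) over all 17993 regions with no filter on low counts, Benjamini-Hochberg adjusted, threshold 0.01, in R 4.3.3; a standard error is the absolute log2 difference over the square root of F. DESeq2 1.42.0 served as an alternative, and Python 3.11.15, numpy 2.4.6, pandas 2.3.3 and scipy 1.17.1 for the rest. Counts of replicate libraries differed by a chi-square of 1.02 to 1.10 per degree of freedom. Start sites, genes and symbols are those of GENCODE M1.

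Members named in the text are the 12 largest ratios, the 5 highest levels per kb, the 5 nearest each side of the threshold, up to 10 called in each direction in single ChIP without overlap, the 3 widest and 3 narrowest, the 8 largest ratios at noncoding start sites alone and the 8 with no start site within 1000 bp, the genes of 29 lists (8 of cell type markers, 9 of pathways, 12 by symbol), 6 of the 15 genes with 2 member start-site regions (the highest ratios) and the 6 with the widest spread of ratios between promoters. Synpo, Zbtb38, A830092H15Rik, Hs3st2, March4, Phyhip and the neighbouring genes of a group were named after their values were seen. The members and lists were chosen with earlier results of these data known. Results on some genes of the lists, on 1 of the 8 marker lists and on the list of genes named by the study are not reported here.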

Additional observations from a re-analysis of the deposited data

How the results depend on the processing

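The number of members was 601. It was 1003 with no count minimum (without 9 regions that have no count in Rosa tChIP and so no finite ratio), 57 at a ratio of 1.5 or more and 1746 at 0.5 or more, by construction of the rule. It ranged from 498 to 721 under count minima of 20 and 5, TMM factors, DESeq2 size factors and means of log2 values. Leaving out each tChIP library in turn gave 592 to 638, of which 547 to 581 were among the 601.

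The number of members called higher in single ChIP was 15. It was 3 by DESeq2's Wald test (the cause was not tested), 41 at an adjusted p under 0.05 and 3 under 0.001. Without a library it ran from 3 to 11: 7, 3 and 7 without the first, the second and the third Camk2a single ChIP library, and 11, 3 and 5 without the first, the second and the third Rosa single ChIP library, where fewer libraries were fitted. Of the 15, 6, 3 and 5 and, for the Rosa line, 9, 3 and 5 were among these. It was 13 to 22 with DESeq2 size factors, library totals alone, a minimum of 10 counts and all 12 libraries in 1 fit. By edgeR 0 members were called lower at 0.01 (14 at an unadjusted p under 0.05, DESeq2 0) under every alternative to the test, and 1 at an adjusted p under 0.05. Of 2304 values of 192 named members under 12 alternatives, none reversed in a called member, 59 in 10 called members fell short of the threshold and 6 in 4 others passed it. Among members not called, 125 values of 51 members changed sign.

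The median log2 single ChIP difference of the members was 0.0597. It was 0.0894 with library totals alone (all passing regions 0.018), 0.12 in members by a ratio of 1.5 and 0.0409 in members by a count minimum of 20, which leaves out regions of low level, and 0.0561 to 0.0619 without any 1 library. The median width was 2981 bp, and 3293 bp by a count minimum of 20. The share overlapping a start site was 84.2%, and 75.4% by a ratio of 1.5 and 90.4% by a count minimum of 20. The cause of these changes was not tested.

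With a replicate block, 16 members were called higher, the 15 among them, and the median log2 difference was 0.0593. The replicate numbers do not pair the samples of the lines: residuals of libraries with the same number correlated at −0.0146 to 0.00342 across regions, those with other numbers at −0.0205 to 0.0199.

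Depth limits these results at narrow and weak members, where Rosa tChIP libraries held as few as 10 counts, and by the spread of 3 libraries a group. The regions were called by the authors, and 1 region can hold several promoters. Start sites rest on annotation, not on transcripts in these cells.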
